A study of Mus musculus with 6 samples.

Results

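The Notch pathway genes described here are 3 receptors (*Notch1*, *Notch2* and *Notch3*), 4 ligands (*Dll1*, *Dll3*, *Jag1* and *Jag2*) and 3 transcriptional targets (*Hes1*, *Hes5* and *Hey1*). They were chosen by gene name, 10 of the 38553 genes in the table of FPKM values (fragments normalised to gene length and to the mapped fragments of the sample), and all 10 were found. RNA-Seq was performed on poly(A)+ RNA of craniofacial tissue dissected from E12.5 mouse embryos, with 3 control samples of the genotype *Rbfox2* flox/flox and 3 *Rbfox2* mutant samples of the genotype Pax3Cre/+:*Rbfox2* flox/flox. Both groups carried the floxed alleles, and the Cre knock-in at *Pax3* was present only in the mutants, so the loss of one intact *Pax3* allele and the deletion of *Rbfox2* cannot be told apart. The Cre acts in the neural crest and in the somites, while the dissected tissue also held cells outside these lineages. In such bulk tissue, fewer cells of a type and less RNA per cell cannot be told apart.

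Notch receptors are cut at the membrane when a ligand on a neighbouring cell pulls on them, and the freed intracellular part joins the DNA-binding protein RBPJ to switch on repressors of the Hes and Hey families. In the embryonic head the pathway is known for keeping neural progenitors from becoming neurons, and for its roles in blood vessels and their mural cells. *Rbfox2* encodes a splicing factor, and the rule that chose the 10 genes used no measured value.

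*Hes5* is a widely used readout of Notch activity in neural tissue, and its values differed more among the 6 samples than those of any other of the 10 genes. The 250 bases before its start (RefSeq, GRCm38.p6, chr4:154960673-154960922, plus strand) are shown with the RBPJ motif GTGGGAA, searched on both strands, in capitals. *Dll1*, the main activating ligand of nascent neurons, is shown for comparison with the 250 bases before its outer annotated start (chr17:15376933-15377182, minus strand), in which the motif was not found.
*Hes5*: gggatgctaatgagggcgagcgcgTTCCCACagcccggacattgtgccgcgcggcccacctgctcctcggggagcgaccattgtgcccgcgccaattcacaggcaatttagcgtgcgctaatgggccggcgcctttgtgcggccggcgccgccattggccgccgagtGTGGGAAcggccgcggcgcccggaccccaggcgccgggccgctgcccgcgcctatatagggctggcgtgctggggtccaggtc
*Dll1*: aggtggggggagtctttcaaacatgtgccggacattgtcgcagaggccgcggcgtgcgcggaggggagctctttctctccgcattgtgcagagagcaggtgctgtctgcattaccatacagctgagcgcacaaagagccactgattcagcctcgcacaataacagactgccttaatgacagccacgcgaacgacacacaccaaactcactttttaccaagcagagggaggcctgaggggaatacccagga
The *Hes5* sequence held 2 matches, which begin 226 bases before the gene start on the reverse strand (read here as TTCCCAC) and 83 bases before it on the forward strand. RefSeq promoters of 300 bases, 250 before and 50 after the start, were matched for 8 of the 10 genes, without *Hes1* and *Hey1*, and no other of the 8 held the motif. Of all 32851 promoters of this length, 6.38% held at least 1 match and 0.256% held 2 or more. A match is a stretch of letters and was not tested as a binding site.

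*Rbfox2* itself was read first, as a check of the labels. Its FPKM was 58.4, 65.0 and 61.3 in control replicates 1, 2 and 3 and 38.1, 36.3 and 34.3 in the mutants, so that the mutant mean was 58.8% of the control mean and the groups did not overlap. The log2 difference was -0.75 (SE 0.079), with an adjusted p of 0.138 in limma. *Pax3* was at 8.83, 11.9 and 11.1 FPKM in controls and 8.62, 7.59 and 8.36 in mutants, a mutant mean of 77.2% of the control mean. The total FPKM per sample ranged from 528123 to 590174, and the read count behind a value is unknown. Control replicate 1 and mutant replicate 1 lay away from the other 4 samples, at -19.1 and -17.0 on a first principal component with 54.7% of the variance, against 7.55 to 11.0. Mutant replicates 1 and 2 carried Y-linked transcripts (mean FPKM of 4 genes 14.4 and 13.9) and the other 4 samples did not (0.0541 at most). No control carried them, so differences tied to the sex of the embryos cannot be fully told apart from those of the genotype.

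No Notch receptor, ligand or target passed the test between the groups. In limma on log2(FPKM + 1) over the 10061 genes that exceeded an FPKM of 5 in every control or in every mutant sample, 0 of the 10 genes passed an adjusted p of 0.05, as did 0 of all genes (background 0%). At an unadjusted p under 0.05 the count was again 0 of 10, beside 167 of 10061 genes (1.66%), and the adjusted p was 1.0 for each of the 10. With the replicate number as a block, 0 of 10 passed the unadjusted threshold, beside 604 genes (6%). The 3 mutant values overlapped the 3 control values for every one of the 10, while 5% of the tested genes had groups that did not overlap. Of the 10, 5 had a higher and 5 a lower fitted level in the mutants. Their median log2 difference was 0.013 beside 0.0057 over all tested genes, and the median size of the difference, regardless of sign, was 0.081 beside 0.054.

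**Figure D1:**
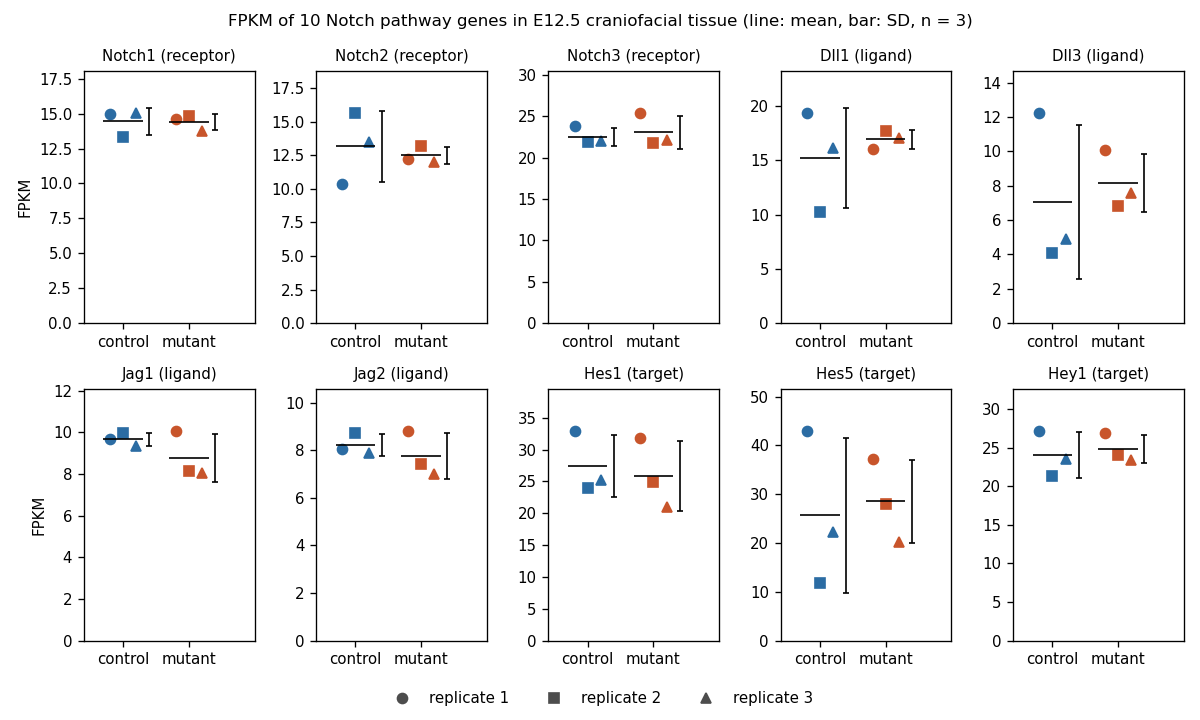
FPKM (vertical axes, from 0) of 3 receptors, 4 ligands and 3 targets in 3 control and 3 mutant samples. Points are samples, with the replicate number given by the symbol, lines are means and bars are SD (n = 3). Control and mutant points overlap in all 10 panels, and the 3 controls of *Hes5*, from 11.8 to 43.0, span the widest range relative to their mean.

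*Notch1* and *Notch3* varied least of the 10 genes. *Notch1*, the receptor best known for neural and endothelial fate decisions (ENSMUSG00000026923, GRCm38 chr2:26457903-26516663), was at 14.9, 13.4 and 15.0 FPKM in controls and 14.6, 14.8 and 13.8 in mutants. The samples of both groups lay within one narrow band, with means of 14.4 ± 0.943 and 14.4 ± 0.556 FPKM (SD, n = 3 each). The log2 difference was -0.0040 (SE 0.080, 95% interval -0.19 to 0.19).

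*Notch2*, expressed in neural progenitors and in mesenchyme (ENSMUSG00000027878, GRCm38 chr3:98013527-98150361), was at 10.4, 15.6 and 13.5 FPKM in controls and 12.3, 13.2 and 12.0 in mutants. The mutants fell inside the range of the controls, which held both the lowest and the highest sample. The means were 13.2 ± 2.65 and 12.49 ± 0.630 FPKM, and the log2 difference was -0.053 (SE 0.14, 95% interval -0.39 to 0.28).

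*Notch3*, the receptor that marks mural cells and is also expressed in neural progenitors (ENSMUSG00000038146, GRCm38 chr17:32120820-32166852), was at 23.8, 21.9 and 22.0 FPKM in controls and 25.4, 21.8 and 22.1 in mutants. Both first replicates were above the other 4 samples, which differed among themselves by little (22.0 ± 0.16 FPKM, SD, n = 4). The log2 difference was 0.030 (SE 0.087, 95% interval -0.18 to 0.24).

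*Notch3* was the most abundant of the receptors on the FPKM scale. It made up 39.9% to 45.5% of the summed FPKM of the 4 *Notch* genes in the 6 samples, while *Notch4*, the endothelial receptor, made up 5.92% to 7.35%. The summed receptor level was 53.0, 54.9 and 53.7 FPKM in controls and 55.9, 53.5 and 51.1 in mutants. This sum thus had means of 53.9 ± 0.932 and 53.5 ± 2.38 FPKM (SD, n = 3 each), with overlapping groups.

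Among the ligands, the Delta-like pair differed most from sample to sample. *Dll1* (ENSMUSG00000014773, GRCm38 chr17:15367354-15376872) was at 19.3, 10.2 and 16.1 FPKM in controls and 16.0, 17.7 and 17.0 in mutants. Control replicate 2 was the low sample, and the other 5 lay between 16.0 and 19.3. The means were 15.2 ± 4.62 and 16.9 ± 0.840 FPKM, with a log2 difference of 0.19 (SE 0.20, 95% interval -0.30 to 0.67). Without control replicate 2 the log2 difference was -0.059, so its direction rested on that sample.

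*Dll3*, a ligand known from somite segmentation and from newborn neurons that does not activate receptors on neighbouring cells (ENSMUSG00000003436, GRCm38 chr7:28293553-28302238), was at 12.2, 4.09 and 4.90 FPKM in controls and 10.1, 6.84 and 7.55 in mutants. It passed the filter through the mutants alone. The first replicates were the highest in both groups, and among the other 4 samples both mutants were above both controls. The means were 7.07 ± 4.47 and 8.15 ± 1.70 FPKM, with a log2 difference of 0.30 (SE 0.35, 95% interval -0.52 to 1.12). The defining markers of the somite-forming mesoderm in which *Dll3* is best known were near 0, with *Tbx6*, *Msgn1* and *Mesp2* summing to 0.804 FPKM at most and *Msgn1* listed at 0 in 5 of the 6 samples.

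*Jag1*, a ligand that acts in vessels, the inner ear and bile ducts (ENSMUSG00000027276, GRCm38 chr2:137081456-137116644), was at 9.70, 9.97 and 9.34 FPKM in controls and 10.1, 8.16 and 8.05 in mutants. Mutant replicate 1 was the highest of the 6 and the other mutants were the lowest. The means were 9.67 ± 0.314 and 8.77 ± 1.15 FPKM, with a log2 difference of -0.13 (SE 0.10, 95% interval -0.37 to 0.10) and the smallest unadjusted limma p of the 10 genes, 0.227.

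*Jag2*, a ligand required for normal palate fusion in the mouse (ENSMUSG00000002799, GRCm38 chr12:112907819-112929776), followed the same order among the mutants. It was at 8.04, 8.73 and 7.88 FPKM in controls and 8.83, 7.44 and 7.02 in mutants. The means were 8.22 ± 0.453 and 7.76 ± 0.950 FPKM, with a log2 difference of -0.077 (SE 0.10, 95% interval -0.32 to 0.16).

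The makeup of the ligands shifted between samples more than between groups. *Dll3* made up 23.5% and 21.3% of the summed FPKM of the 5 ligands (*Dll1*, *Dll3*, *Dll4*, *Jag1* and *Jag2*) in the first replicates of control and mutant. Of the other samples, the controls had shares of 11.5% and 12.0%, below the mutants with 16.0% and 18.0%. *Dll3* passed the filter through the mutants alone, and in these samples 25% of tested genes had both mutant FPKM values above both control values. The summed ligand level had means of 42.8 ± 8.39 FPKM in the controls and 44.0 ± 2.87 in the mutants, with overlapping groups.

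The targets ranged from *Hey1*, with a modest spread, to *Hes5*, with the widest of the 10 genes. *Hes1*, the repressor used in most tissues with Notch activity (ENSMUSG00000022528, GRCm38 chr16:30064384-30067796), was at 33.0, 24.0 and 25.1 FPKM in controls and 31.8, 24.9 and 20.9 in mutants. Both first replicates were high and the other 4 samples were lower, in either group. The means were 27.4 ± 4.89 and 25.9 ± 5.47 FPKM, with a log2 difference of -0.084 (SE 0.18, 95% interval -0.50 to 0.33).

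*Hes5*, whose upstream sequence is printed above (ENSMUSG00000048001, GRCm38 chr4:154960923-154962371), was at 43.0, 11.8 and 22.2 FPKM in controls and 37.2, 28.1 and 20.2 in mutants. The controls held both the highest and the lowest sample, so the mutants lay within their range. The means were 25.7 ± 15.9 and 28.5 ± 8.52 FPKM, with a log2 difference of 0.28 (SE 0.43, 95% interval -0.74 to 1.30), the widest interval of the 10. Without control replicate 2 the difference was -0.16. With a covariate for the Y-linked genes it was -0.15, in a fit that in effect set mutant replicate 3 alone against the controls.

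*Hey1*, a target expressed in vessels, cartilage precursors and brain (ENSMUSG00000040289, GRCm38 chr3:8663359-8667256), was at 27.2, 21.4 and 23.5 FPKM in controls and 26.9, 24.1 and 23.4 in mutants. Its first replicates were again the highest, by a smaller margin than for *Hes5*. The means were 24.0 ± 2.95 and 24.8 ± 1.87 FPKM, with a log2 difference of 0.049 (SE 0.11, 95% interval -0.20 to 0.30).

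Some of these genes share their locus with another annotated gene. *Hes5* is overlapped on the other strand by *Gm20421*, listed at 2.67, 0.298 and 1.18 FPKM in controls and 1.89, 2.47 and 1.20 in mutants. *Notch1* is overlapped by *0610009E02Rik*, at 0.975 FPKM or less. The libraries were stranded, but whether strand was used in making the FPKM values is not given in the sources used here.

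Ordered by their mean over the 6 samples on the FPKM scale, which corrects for gene length, the means of the targets were highest and that of *Dll3* was lowest, but *Hes5* and *Dll3* crossed several ranks between samples. *Hes5* (27.1 FPKM), *Hes1* (26.6), *Hey1* (24.4) and *Notch3* (22.8) led, and neighbours in this order had overlapping ranges. *Dll1* (16.1), *Notch1* (14.4) and *Notch2* (12.8) came next, again with overlapping ranges, followed by *Jag1* (9.22), *Jag2* (7.99) and *Dll3* (7.61). In control replicate 2, *Hes5* (11.8 FPKM) was below *Notch1* (13.4) and *Notch2* (15.6), and in control replicate 1 *Dll3* (12.2) was above *Notch2* (10.4), *Jag1* (9.70) and *Jag2* (8.04). Between neighbours, the ranges were separate only from *Notch3* to *Dll1* and from *Notch2* to *Jag1*.

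**Figure D2:**
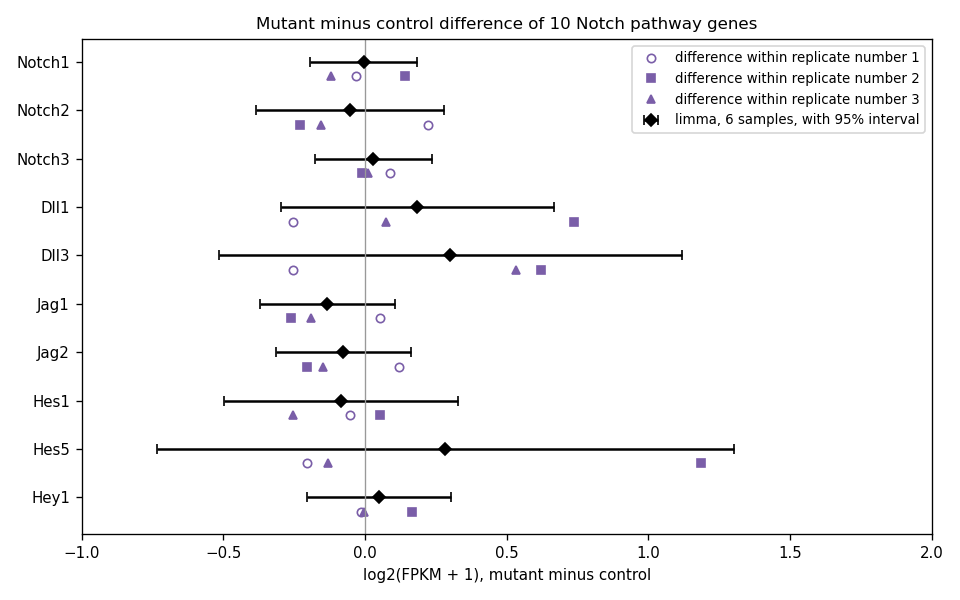
Mutant minus control difference in log2(FPKM + 1) (horizontal axis) for each of the 10 genes (vertical axis). Diamonds with bars are limma estimates from 6 samples with 95% intervals, and the purple symbols are the differences within each replicate number. All 10 intervals cross 0, and each gene has purple symbols on both sides of 0.

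Within the replicate numbers, no gene of the 10 moved one way throughout. The values do not tell which control and mutant samples numbered 2 and 3 belong together, so these differences depend on the numbering. The share of the 10 with a mutant minus control difference of the same sign in all 3 numbers was 0, beside 26.8% of the tested genes. For *Dll3* the log2 differences were -0.26, 0.62 and 0.53 in replicates 1, 2 and 3. For *Dll1* they were -0.26, 0.74 and 0.07. Both ligands were thus lower in the mutant of the first number and higher in the mutants of the other two.

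*Jag1* and *Jag2* showed the opposite order. Their differences were 0.05, -0.26 and -0.19 for *Jag1*, and 0.12, -0.21 and -0.15 for *Jag2*. *Notch2* was likewise higher in the mutant of the first number, at 0.22, and lower in the others, at -0.23 and -0.15. *Hes5* differed by 1.18 in the second number alone, where the control sample was at its lowest, and by -0.20 and -0.13 in the other numbers.

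When the first replicates were left out, 2 of the 10 genes passed an unadjusted p of 0.05, beside 11% of the tested genes. *Dll3* had means of 4.50 FPKM in the controls and 7.20 in the mutants (log2 difference 0.58, SE 0.11, limma adjusted p = 0.323, 2 samples against 2). *Jag1* had means of 9.65 and 8.10 FPKM (log2 difference -0.23, SE 0.083, limma adjusted p = 0.432). Neither passed after adjustment over all genes. *Dll3* was in the tested set only because its mutant values passed the filter, and the control values under it were the 2 used here, so its call and its place in these counts depend on the difference itself and lend no support. In these 4 samples both mutant values were above both control values for *Dll1* and *Dll3*, 2 of 10 beside 25% of tested genes. Both were below for *Notch2*, *Jag1* and *Jag2*, 3 of 10 beside 19.9%. These shares were near those of all genes.

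Leaving out only one of the first replicates changed the count as well. Without control replicate 1, *Dll3*, with the same limit, passed an unadjusted p of 0.05 (log2 difference 0.72, limma adjusted p = 0.734), beside 6.45% of tested genes. Without mutant replicate 1, *Jag1* passed (log2 difference -0.23, limma adjusted p = 0.907), beside 4.1%. In the same order, *Dll3* was at 0.16 without mutant replicate 1 and *Jag1* at -0.13 without control replicate 1.

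*Hes5*, *Dll3* and *Dll1*, the 3 most variable of the 10 genes, differed widely between the control samples. The mutant samples also differed for *Hes5* and *Dll3*, but for *Dll1* they lay between 16.0 and 17.7 FPKM. Over the 6 samples the highest *Hes5* value was 3.65 times the lowest, and this ratio was 2.98 for *Dll3*, 1.89 for *Dll1* and 1.13 for *Notch1*. The SD of log2(FPKM + 1) over the 6 samples was larger for *Hes5* than for 99.5% of the tested genes, for *Dll3* than for 99.0% and for *Dll1* than for 93.3%. For *Notch1* this share was 12.1%. Control replicate 1 was the highest sample for 5 of the 10 genes (*Dll1*, *Dll3*, *Hes1*, *Hes5* and *Hey1*), and control replicate 2 was the lowest for *Notch1*, *Dll1*, *Dll3*, *Hes5* and *Hey1*. The shares of all tested genes with the same highest or lowest sample were not counted, so these counts are not particular to the 10. Both first replicates were above all other samples for *Notch3*, *Dll3*, *Hes1*, *Hes5* and *Hey1*, 5 of 10 beside 18.4% of the tested genes. None of the 10 had both first replicates below all others, which 34.7% of the tested genes had.

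**Figure D3:**
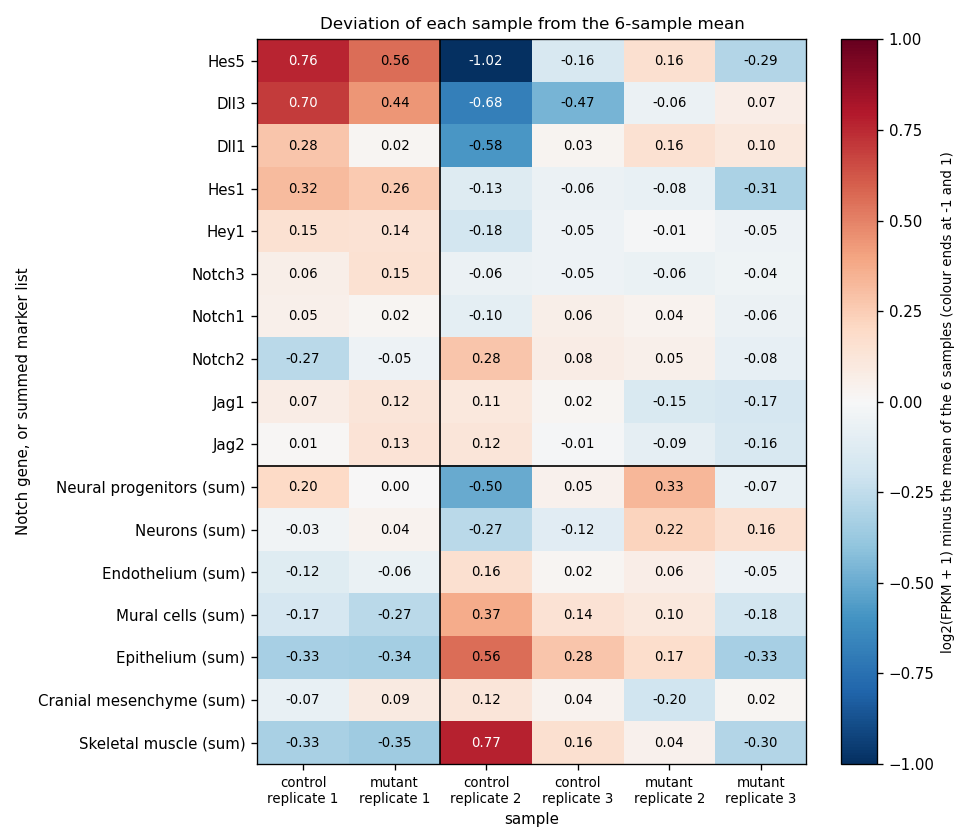
Deviation of each sample (columns) from the mean of the 6 samples in log2(FPKM + 1), as colour and printed value, for the 10 Notch genes (above the line) and for summed marker lists of cell types (below it). *Hes5* and *Dll3* are above their mean in both first replicates (0.76 and 0.56, 0.70 and 0.44), and both are lowest in control replicate 2 (-1.02 and -0.68). In that sample the neural progenitor sum is lowest and the muscle and epithelium sums are highest. The neural progenitor sum is highest in mutant replicate 2, not in a first replicate.

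Markers of the cell types in which these genes act were compared beside them. Dissected tissue held cranial mesenchyme throughout (8 genes, led by *Prrx1* and *Twist1*, summed level 414 to 474 FPKM in the controls and 380 to 464 in the mutants). The 9 neural progenitor markers, led by *Fabp7* and *Nes*, summed to 531, 326 and 478 FPKM in controls and 464, 583 and 439 in mutants. As for *Hes5*, *Dll1* and *Dll3*, control replicate 2 was the lowest sample. Of these 9 markers, 7 had a higher mean in the mutants and 0 had groups that did not overlap, beside 5% of tested genes.

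The 8 neuronal markers, led by *Tubb3* and *Stmn2*, summed to 632 to 744 FPKM in the controls and 781 to 889 in the mutants, all 8 had a higher mean in the mutants, and for 5 of the 8 all mutant samples were above all control samples, beside groups that did not overlap in either direction for 5% of tested genes. The groups overlapped for *Isl1*, *Elavl4* and *Neurod1*. The part of these neural cells in the differences of *Dll1*, *Dll3* and *Hes5* was not tested. None of the neural markers was at 0 in every sample.

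Vascular markers overlapped between the groups. The 8 endothelial markers, led by *Cdh5* and *Cldn5*, summed to 115 to 140 FPKM in the controls and 120 to 131 in the mutants. The 6 mural cell markers, led by *Acta2* and *Pdgfrb*, summed to 81.9 to 119 and 76.1 to 98.8 FPKM. The 6 epithelial markers, led by *Krt5* and *Krt14*, summed to 113 to 210 and 112 to 161 FPKM, and the 6 skeletal muscle markers, led by *Actc1* and *Myog*, to 102 to 219 and 99.8 to 132. Control replicate 2 was the highest sample of the endothelial, mural, epithelial and muscle sums. A higher mean in the mutants was found for 4 of the 8 endothelial and 3 of the 6 mural markers. It was found for 0 of the 6 epithelial, 1 of the 6 muscle and 1 of the 8 cranial mesenchyme markers. For 1 muscle marker, *Myod1*, all mutant samples were below all control samples, beside groups that did not overlap in either direction for 5% of tested genes. The share of these cells in the levels of *Notch3*, *Jag1* and *Hey1* was not tested.

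The genes whose pattern over the 6 samples was nearest to the 3 most variable members were found among 13714 genes with a mean FPKM over 1, by the root mean square difference of log2(FPKM + 1) centred on the mean. For *Hes5* they were *C130071C03Rik* (0.182), *Sox3* (0.185), which encodes a transcription factor of neural progenitors, and a gene listed under a clone name (0.186). *Sox3* was at 22.9, 7.13 and 10.3 FPKM in controls and 16.4, 11.7 and 10.9 in mutants. Its highest and lowest samples were those of *Hes5*, which its choice by nearness of pattern favoured. For *Dll3* they were *Hba-a1* (0.0936), a haemoglobin gene with a near-identical copy, *Nxph4* (0.121), and *Zic1* (0.123), a transcription factor gene of the dorsal neural tube.

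The nearest pattern of all was that of *Wnt7b*, a Wnt ligand gene, to *Dll1*, with a difference of 0.0255. *Wnt7b* was at 28.5, 15.4 and 23.9 FPKM in controls and 24.0, 27.1 and 26.4 in mutants. *Msi1* (0.0710), which encodes an RNA-binding protein of neural progenitors, and *Celsr2* (0.0720), a planar polarity cadherin gene, followed. These distances are descriptions over 6 samples, in which the summed cell type markers also differed from sample to sample.

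The remainder of the pathway was read from a list of 42 further genes, all in the table, of which 31 passed the filter. None of the 31 passed an unadjusted p of 0.05, beside the background of 1.66%. The fitted level was higher in the mutants for 17 and lower for 14, with a median log2 difference of 0.012. Only *Dtx2*, named after its values were seen, had all mutant values above all control values, 1 of 31 beside 5% of tested genes.

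By role, the 2 most abundant genes of each group were as follows. Among the genes that add or modify sugars on the receptors, *Mfng* was at 42.6, 23.6 and 31.2 FPKM in controls and 34.1, 39.2 and 37.7 in mutants (log2 difference 0.22, SE 0.19). Control replicate 2 was its lowest sample, as for *Dll1*. *Poglut1* differed by -0.038 (SE 0.089).

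Of the ubiquitin ligases that drive ligand endocytosis, *Mib1* differed by 0.012 (SE 0.17) and *Mib2* by -0.079 (SE 0.083) on the log2 scale. Of the receptor-cleaving enzymes, the gamma-secretase subunits *Psenen* and *Aph1a* differed by 0.026 (SE 0.076) and 0.059 (SE 0.091). In the nuclear complex, *Rbpj*, whose product binds the motif printed above, was at 39.5, 38.0 and 37.2 FPKM in controls and 42.1, 37.1 and 37.3 in mutants (log2 difference 0.019, SE 0.080). *Snw1*, a cofactor of RBPJ, was lower in both first replicates (49.7 and 51.6 FPKM) than in the other samples (72.5 to 80.3).

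Of the regulators of turnover and inhibition, *Dtx3* and *Numbl* differed by -0.13 (SE 0.13) and 0.084 (SE 0.14). The further Hes and Hey genes *Hes6* and *Hey2* differed by 0.13 (SE 0.10) and -0.064 (SE 0.079). *Notch4* and *Dll4*, both endothelial, had an FPKM under 5 and were fitted at a filter of 1, with differences of -0.057 (SE 0.11) and -0.085 (SE 0.089). *Nrarp*, a target and inhibitor of the pathway named here after its values were seen, was at 34.1, 14.7 and 19.5 FPKM in controls and 29.8, 22.5 and 19.6 in mutants. It shared its highest and lowest samples with *Hes5*, and the share of all genes that do so was not counted.

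With the first replicates left out, 2 of the 31 genes passed an unadjusted p of 0.05, beside 11% of tested genes. They were *Mfng* (log2 difference 0.48, limma adjusted p = 0.369) and *Hes6*, an inhibitor of *Hes1* that promotes neuronal differentiation (0.27, limma adjusted p = 0.357). Without control replicate 1 alone, 3 of the 31 passed, *Mfng*, *Hes6* and *Dtx4*, beside 6.45%.

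**Figure D4:**
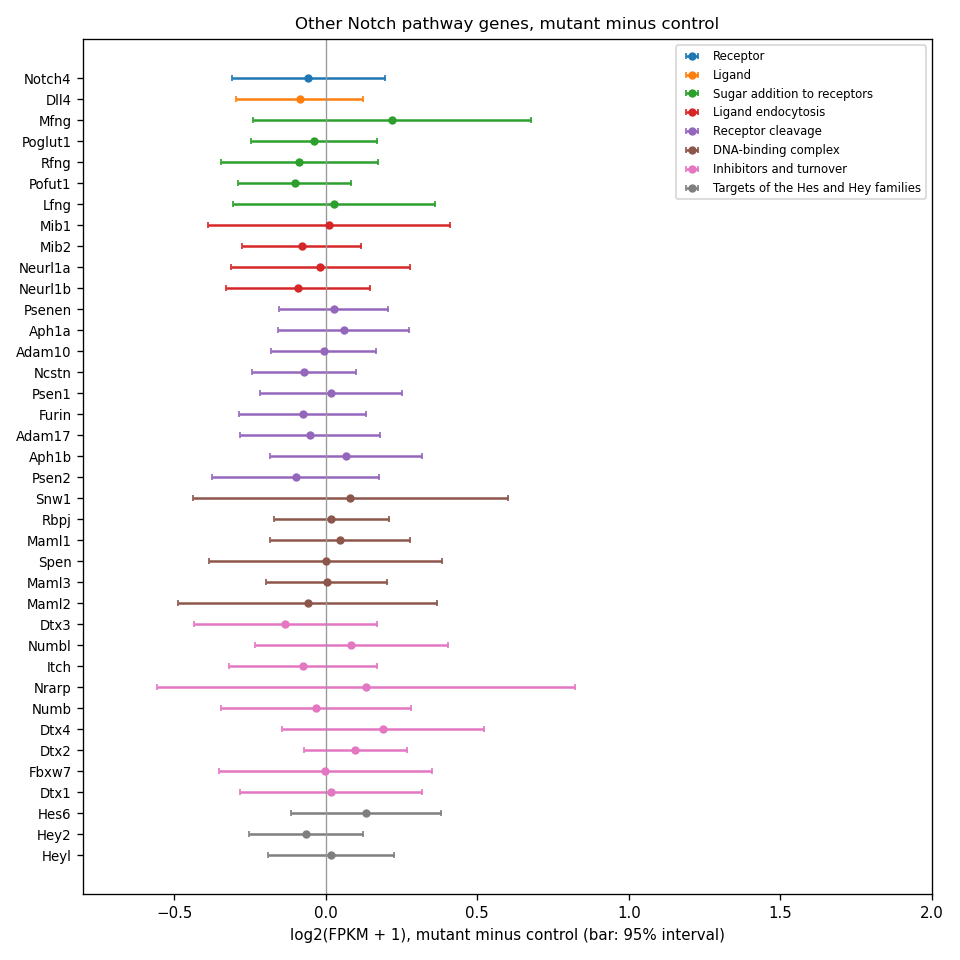
Mutant minus control difference in log2(FPKM + 1) (horizontal axis) with its 95% interval for the 38 further pathway genes with over 1 FPKM in every control or in every mutant sample (vertical axis), coloured by role. Of these, 31 also passed the filter of 5. All 38 intervals cross 0, and *Nrarp* has the widest.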

How the data were processed

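RNA-Seq was performed on craniofacial tissue of 3 control and 3 *Rbfox2* mutant embryos at E12.5. The labels state that replicates were independent. The authors prepared stranded poly(A)+ libraries, aligned the reads with STAR to GRCm38 and deposited FPKM values for 38553 genes, with FastQC 0.11.4 and Cuffdiff named in the submitters' processing notes. The versions of STAR and Cuffdiff and the annotation are not given in the sources used here. The 6 single-sample tables held the same values as the table of all samples (0 differences). FPKM keeps no read counts. Low values shared 1 ratio in 27.9% to 32.0% of genes between the samples numbered 2 and 3, and in at most 1.89% between a first replicate and the other samples, so whole reads were not recovered and no interval for counting error was given.

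The 10061 genes that exceeded an FPKM of 5 in every control or in every mutant sample were tested on log2(FPKM + 1), which understates changes of low genes, with limma 3.58.1 in R 4.3.3 (intensity trend, no covariates, all 6 samples) and Benjamini-Hochberg adjustment over all of them. The script was tested on simulated data. Exact two-sided permutation tests of single genes gave p between 0.4 and 0.9 for the 10 genes, with 0.10 the smallest possible. The named genes were the 10 members, *Rbfox2*, *Pax3*, the 2 most abundant pathway genes of each role and markers of each list, and the 3 genes nearest in pattern to the 3 most variable members. The members, gene lists and alternatives were chosen with earlier results of these data known.

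Deviations from the group means correlated, across genes, at 0.644, 0.258 and 0.513 between samples numbered 1, 2 and 3, so the numbers were taken to pair the samples. Control replicate 3 with mutant replicate 2 gave 0.401 and control replicate 2 with mutant replicate 3 gave 0.234, so these values set the first replicates apart but do not tell the pairs numbered 2 and 3 from each other. The pairing comes from these values alone, and the study ties no litter or day to the numbers. All 6 labels name one sequencing lane. Coordinates are from GENCODE for GRCm38 and promoters from RefSeq for GRCm38.p6. Alternatives were a pseudocount of 0.1, median ratio scaling, quantile normalization, a filter at an FPKM of 1 or none, the replicate block, no intensity trend, a covariate of 4 Y-linked genes, a term for the first replicates, replicates 2 and 3 only, and each sample left out.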

Additional observations from a re-analysis of the deposited data

How the results depend on the processing

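Of 16 alternatives, none gave an adjusted p under 0.05 for any of the 10 genes; the smallest was 0.323 (*Dll3*, replicates 2 and 3 only). The count of all genes past the adjusted threshold, 0 in the main analysis, was 3 with a term for the first replicates, 4 with replicates 2 and 3 only, and 0 to 1 with a sample left out. Past the unadjusted threshold it was 167 (71 higher, 96 lower), and 604 with the replicate block, 304 at a filter of 1, 663 with no filter, 611 with the first-replicate term, 1103 with replicates 2 and 3 only, and 78 to 649 with a sample left out. The Y-linked covariate gave 50 higher and 126 lower. The count of the 10 genes past it was 2 with replicates 2 and 3 only and 0 to 1 with a sample left out, and of the further pathway genes 2 and 0 to 3. The replicate block, in which the paired numbers enter the fit, changed no other call.

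*Dll3*, *Jag1* and *Jag2* kept their direction in all 16 alternatives. The replicate block, the first-replicate term, the intensity trend and the FPKM filters could not change these estimates, so they did not test the direction. With a sample left out *Dll3*, which passed the filter through the mutants alone, ran from 0.036 (without control replicate 2) to 0.72. *Jag1* ran from -0.23 to -0.082 and *Jag2* from -0.16 to -0.016. *Notch1* was at 0.0088 with quantile normalization and 0.011 with replicates 2 and 3 only. With the Y-linked covariate *Notch3* was at -0.027, *Hes5* at -0.15, *Hey1* at -0.028, *Hes1* at -0.36 (from -0.084) and *Jag2* at -0.20 (from -0.077). Then 2 of the 10 genes were higher and 8 lower, and their median was -0.085 (from 0.013) beside 0.035 over all genes. Only mutant replicates 1 and 2 carried Y-linked transcripts, so this fit in effect set mutant replicate 3 alone against the controls. Its estimates rest on that sample and do not separate sex from genotype. With a sample left out, the log2 difference ran from -0.056 to 0.026 for *Notch1*, -0.20 to 0.072 for *Notch2*, -0.037 to 0.070 for *Notch3*, -0.059 to 0.37 for *Dll1*, -0.24 to 0.053 for *Hes1*, -0.16 to 0.73 for *Hes5* and -0.028 to 0.14 for *Hey1*. The cause of these changes was not tested. With 3 samples a group and no counts, differences inside the printed intervals were not excluded.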
